A study of Mus musculus with 3 samples.

Results

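The lysyl oxidase family was examined in UMI-RNAseq data of the mouse fibroblast line NIH3T3. The members were the 5 genes named Lox, Loxl1, Loxl2, Loxl3 and Loxl4 in the deposited table, each found once among 55573 genes listed. The data comprise 3 libraries of 1 condition, cells cultured without treatment in medium with fetal bovine serum, so no group could be set against another. The text of the study does not say whether the libraries came from separate cultures, and an SD over them may therefore cover technical spread only. Levels are in FPKM, which scales the fragments counted for a gene to its length in kilobases and to a library of 1000000 fragments, after copies with the same molecular tag had been removed.

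Lysyl oxidases are copper-dependent amine oxidases that act mostly outside the cell. They oxidize lysine and hydroxylysine side chains of collagens and elastin to aldehydes, which then condense into the covalent cross-links that make fibers stiff and insoluble. Lox and Loxl1 carry a propeptide that a protease removes in the matrix, whereas Loxl2, Loxl3 and Loxl4 carry scavenger receptor cysteine-rich domains in its place. The family shares a catalytic end, in which a copper ion is held by a cluster of histidines. Fibroblasts are a classical source of these enzymes.

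The stretch that codes for the histidine cluster is shown because it lies in the catalytic end that the family shares. In the longest coding isoform of each of the 5 genes, a histidine-X-histidine-X-histidine motif occurred once. Its 15 bases are in capitals below, with 24 coding bases on either side, 5′ to 3′ on the coding strand of GENCODE M21 transcripts (GRCm38).
Loxl1: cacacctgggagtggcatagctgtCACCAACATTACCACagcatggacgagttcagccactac
Loxl2: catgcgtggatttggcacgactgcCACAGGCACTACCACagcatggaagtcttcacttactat
Loxl3: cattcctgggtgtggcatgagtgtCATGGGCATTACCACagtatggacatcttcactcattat
Loxl4: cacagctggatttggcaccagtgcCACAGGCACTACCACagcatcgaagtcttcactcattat

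Each of these windows spans an exon junction, and the junction falls after the fifth base of the motif in all 5 genes, Lox included. The Loxl1 window lies on the minus strand of chromosome 9, at 58294359 to 58294387 in exon 3 and at 58293696 to 58293729 in exon 4 of 7. The Loxl2 window lies on the plus strand of chromosome 14, at 69682310 to 69682338 in exon 10 and at 69689028 to 69689061 in exon 11 of 14. The Loxl3 window lies on the plus strand of chromosome 6, at 83049989 to 83050017 in exon 10 and at 83050116 to 83050149 in exon 11 of 14. The Loxl4 window lies on the minus strand of chromosome 19, at 42599877 to 42599905 in exon 11 and at 42598783 to 42598816 in exon 12 of 15. Over the 63 bases, Lox and Loxl1 were identical at 58 positions, and Loxl2 and Loxl4 at 54. The other pairs were identical at 42 to 48 positions. Across whole annotated transcripts, the longest exact run common to a pair of members was 32 nt, between Lox and Loxl1, whereas the reads were 150 nt long.

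The libraries were first checked against their label. Of 12 fibroblast markers, 10 had a mean of at least 1 FPKM, against 23.2% of all genes listed. The genes listed include pseudogenes and antisense genes, and their median was 0 FPKM. The summed level of the 12 was 5241 to 5308 FPKM per library. The exceptions were Fap, at 0 to 0.0765 FPKM, and Lum, which was listed at 0. The extraction text of the labels mentions retinas, and of 12 retina markers 1 had a mean of at least 1 FPKM, namely Abca4 at 1.37 ± 0.187 FPKM (SD, n = 3). The summed retina level was 1.96 to 2.90 FPKM, and Nrl was listed at 0. Fragments were recovered from the FPKM steps, and the libraries held 14423209, 13959723 and 14307241 fragments.

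Of the 5 members, 4 had a mean of at least 1 FPKM, against 23.2% of all genes listed. The plot of FPKM by library shows this spread of levels, with Lox at the top and Loxl2 far below the others. Summed over the family, the level was 428, 422 and 422 FPKM in the 3 libraries, and averaged 424 ± 3.49 (SD, n = 3). This was 0.0615% of the summed FPKM of all genes.

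**Figure D1:**
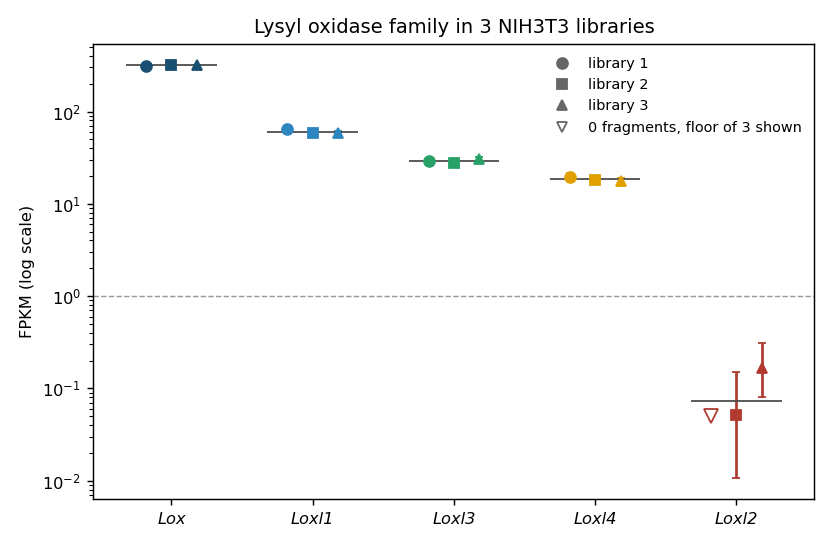
FPKM of each family member (log scale) in the 3 libraries, with exact Poisson 95% intervals for counting error and the mean as a horizontal line. Lox lies between 315 and 318 FPKM in the 3 libraries, Loxl2 lies under the dashed line at 1 FPKM, and the open triangle marks its library with 0 fragments, drawn at the floor of 3 fragments.

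Lox, which encodes the founding enzyme of the family and cross-links fibrillar collagen and elastin, occupies chromosome 18 from 52516067 to 52529867, minus strand (GRCm38, ENSMUSG00000024529). Libraries 1, 2 and 3 gave 315, 318 and 316 FPKM, or 316 ± 1.29 on average (SD, n = 3). These values rested on 20930, 20414 and 20794 fragments. The libraries differed by a coefficient of variation of 0.408%, below the 0.695% that counting error alone gives. Lox ranked 280 of all genes by mean FPKM, so that 2.16% of the 12905 genes with a mean of at least 1 FPKM lay above it.

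Loxl1 encodes an enzyme known for its role in the upkeep of elastic fibers. The gene (ENSMUSG00000032334) occupies chromosome 9 from 58287738 to 58313186, minus strand, and has 1 annotated isoform. Its level was 64.0, 58.2 and 58.9 FPKM in libraries 1, 2 and 3, or 60.4 ± 3.15 on average (SD, n = 3), at rank 2260. Library 1 was the high one, and its exact Poisson 95% interval of 61.7 to 66.3 FPKM did not overlap that of library 2, from 56.0 to 60.4, or that of library 3, from 56.8 to 61.2. The coefficient of variation was 5.22%, against 1.88% from counting error.

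Loxl3 encodes a member required for collagen assembly in the developing palate and spine. It occupies chromosome 6 from 83034173 to 83052562, plus strand (ENSMUSG00000000693). It was at 29.4, 27.9 and 30.2 FPKM in libraries 1, 2 and 3, with a mean of 29.2 ± 1.16 (SD, n = 3) and rank 4589. Its coefficient of variation of 3.99% was close to the 3.65% from counting error. The reference tables keep Loxl2 as an older name of Loxl3, and the genes were told apart here by their identifiers.

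Loxl4 also encodes an enzyme of the group with scavenger receptor domains. It occupies chromosome 19 from 42593982 to 42612813, minus strand (ENSMUSG00000025185). It was at 19.7, 18.1 and 17.5 FPKM in libraries 1, 2 and 3, with a mean of 18.4 ± 1.12 (SD, n = 3) and rank 6257. This was near the median of 17.5 FPKM of the genes with a mean of at least 1 FPKM. The 95% intervals of its libraries overlapped, from 15.97 to 19.1 FPKM in the lowest library and from 18.1 to 21.4 in the highest.

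Loxl2, which encodes an enzyme known to act on collagen IV of basement membranes, occupies chromosome 14 from 69609068 to 69695834, plus strand (ENSMUSG00000034205). Only 0, 3 and 10 fragments were counted in libraries 1, 2 and 3. The corresponding levels were 0, 0.0514 and 0.167 FPKM, with a mean of 0.0729 ± 0.0857 (SD, n = 3) and rank 20295. For the count of 0 in library 1, a floor of 3 fragments corresponds to 0.0498 FPKM, and the exact Poisson 95% interval reached 0.0612 FPKM. The exact Poisson 95% interval of library 3, from 0.0802 to 0.308 FPKM, lay above this floor. Library 3 carried most of this level, and the mean without it was 0.0257 FPKM. In such bulk libraries, a low level in many cells cannot be told apart from a higher level in few.

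The spread between libraries was also described by a chi-square per degree of freedom. Counting error alone gives a mean of about 1 for it, and a median below that mean. It was 0.341 for Lox, 1.18 for Loxl3, 1.92 for Loxl4, 7.76 for Loxl1 and 6.03 for Loxl2. Among 11500 genes with at least 100 fragments in all, the median was 0.814, and 98.1% of them lay below Loxl1. Among 1453 genes with 10 to 16 fragments in all, 99.5% lay below Loxl2. These reference sets were chosen after the values were seen. Loxl1 and Loxl4 were each highest in library 1, whereas Loxl3 and Loxl2 were highest in library 3, so the members did not share an order of libraries. The deepest library held 1.03 times the fragments of the shallowest.

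**Figure D2:**
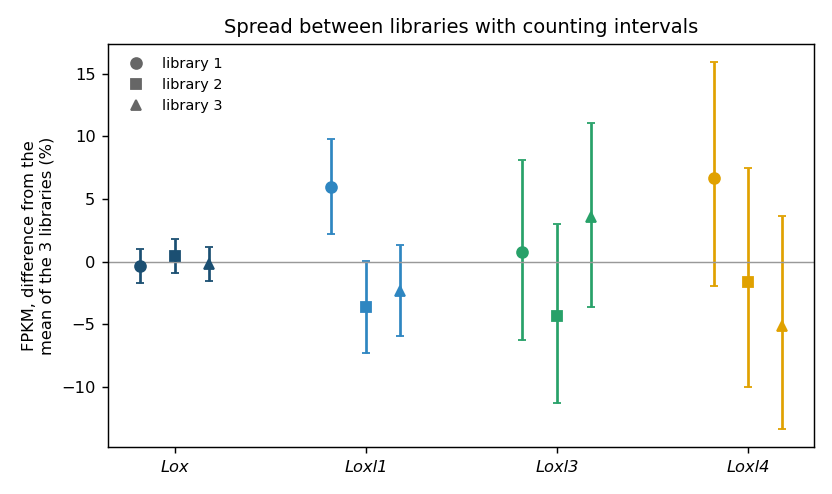
Difference of each library's FPKM from the mean of the 3 libraries, in percent, for the 4 members above 1 FPKM; bars are exact Poisson 95% intervals for counting error. The points of Lox lie near 0, and the interval of Loxl1 in library 1 lies above those of the other libraries.

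In each of the 3 libraries, FPKM fell in the order Lox, Loxl1, Loxl3, Loxl4, Loxl2. The range over libraries of each member lay apart from that of its neighbor in the order. Lox exceeded Loxl1 by a factor of 4.93, 5.46 and 5.36 in libraries 1, 2 and 3, with a log2 ratio of 2.39 ± 0.08 (SD, n = 3) on the log2(FPKM + 0.1) scale. Loxl1 exceeded Loxl3 by a factor of 2.17, 2.08 and 1.95, with a log2 ratio of 1.04 ± 0.08. This ratio depended on length, and its log2 value was 2.22 with the longest isoforms, 2.06 with the mean of the coding isoforms and 1.91 without division by length. Loxl3 exceeded Loxl4 by a factor of 1.50, 1.54 and 1.73, with a log2 ratio of 0.66 ± 0.11. Against Loxl2 a factor cannot be given in library 1, where Loxl4 was 395-fold higher when Loxl2 was taken at the floor of 3 fragments. It was 353-fold higher in library 2, with an exact binomial 95% interval of 120 to 1716 for counting error, and 105-fold higher in library 3, with an interval of 56.4 to 219. With fragments pooled over the libraries, Loxl4 was 253-fold higher than Loxl2 per length, but 748-fold without library 3 and 162-fold without library 1. Lox was 6175-fold higher than Loxl2 in library 2, with an interval of 2113 to 29947, and 1887-fold in library 3, with an interval of 1026 to 3936. These intervals are wide because Loxl2 rested on 3 and 10 fragments. When signs were flipped over libraries in an exact permutation test (two-sided), p was 0.25 for each of the 4 neighboring pairs and 0.25 after Benjamini-Hochberg adjustment. With 3 libraries this is the smallest p possible, so no pair could pass 0.05.

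Lox supplied 73.6%, 75.3% and 74.7% of the family total in libraries 1, 2 and 3, with a mean of 74.5% ± 0.855 (SD, n = 3). Loxl1 supplied 14.9%, 13.8% and 13.95%, with a mean of 14.2% ± 0.624. Loxl3 supplied 6.88% ± 0.268 and Loxl4 supplied 4.34% ± 0.230. Loxl2 supplied 0%, 0.0122% and 0.0396% in libraries 1, 2 and 3. The low share of Lox in library 1 went with the high share of Loxl1 there, as shares of 1 total must offset each other. Lox itself was at 315, 318 and 316 FPKM in libraries 1, 2 and 3.

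The order of Loxl3 and Loxl4 rested on the gene length in the FPKM. The recovered fragments showed that the authors divided by the mean length of the annotated isoforms, which was 1808 nt for Loxl3 and 1975 nt for Loxl4. Each of these genes has 5 annotated isoforms, of which 2 are protein coding for Loxl3 and 4 for Loxl4. The longest isoform of Loxl3 measures 4098 nt, while its 3 noncoding isoforms measure 462 to 617 nt. With the mean length of the protein-coding isoforms instead, 3675 nt for Loxl3 and 2300 nt for Loxl4, Loxl3 came to 14.4 ± 0.573 FPKM and Loxl4 to 15.8 ± 0.959 (SD, n = 3). Loxl4 was then the higher of this pair in each library, with a log2 ratio of Loxl3 to Loxl4 of -0.14 ± 0.11. With the longest isoform of each gene, Loxl3 was at 12.9 and Loxl4 at 9.74 FPKM, in the order of the deposited values. The lengths of Lox and Loxl2 changed by a factor of 1.03 and 1.27 between the mean and the longest isoform, and Loxl1 has a single isoform. The plot of shares by gene length shows that Lox remained above the other members, with 74.5% to 83.5% of the family.

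**Figure D3:**
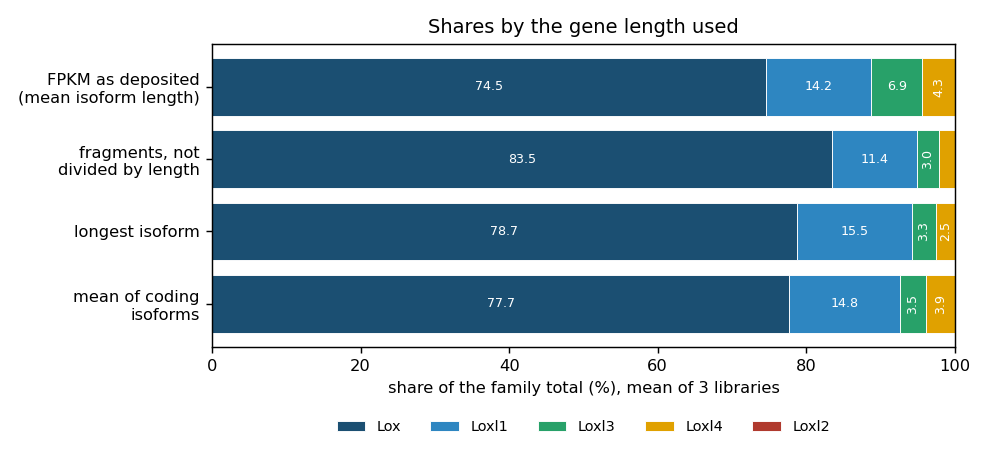
Share of the family total (%, mean of the 3 libraries) for each member under 4 ways of dividing fragments by length, with values printed in the bars where they exceed 2.4%. Lox holds 74.5% to 83.5%, the order of Loxl3 and Loxl4 differs only in the lowest bar, where 3.53% stands beside 3.89%, and Loxl2 is too small to be seen.

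Genomic neighbors bear on how exactly a fragment can be assigned. Loxl2 has a near-copy, the unprocessed pseudogene Gm21451, at chromosome 14 from 69390854 to 69480287, plus strand. Of the distinct 75-nt words of the Loxl2 transcripts, 42.7% also occurred in Gm21451, and 43.6% occurred in a transcript of some other gene. Gm21451 was listed at 0 in each library. If the fragments of Loxl2 could come only from its unshared words, its mean would be 0.129 ± 0.152 FPKM (SD, n = 3), which still lay below 1. How reads with several mapping positions were treated is not given in the sources used here, and the part of the near-copy in the low level was not tested. The antisense gene Gm27177, which shares 301 exonic nt with Loxl2, had 1 fragment in library 1 and 0 in the others.

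Loxl3 shares 535 exonic nt, 11.6% of its exonic sequence, with Htra2, a gene on the opposite strand for a mitochondrial protease. Htra2 was at 32.5, 31.1 and 35.5 FPKM in libraries 1, 2 and 3. The text of the study does not state whether strand was used in counting, or how fragments over overlapping genes were treated. Whether fragments in this overlap were counted for Loxl3, for Htra2 or for neither is therefore not known. The part of the overlap in the level of Loxl3 was not tested. Lox overlaps the antisense gene AC161119.1 over 30 exonic nt, 0.628% of its exonic sequence. That gene had 210 to 226 fragments per library, against at least 20414 for Lox. Lox, Loxl1 and Loxl4 had 0% of their 75-nt words in common with another gene.

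**Figure D4:**
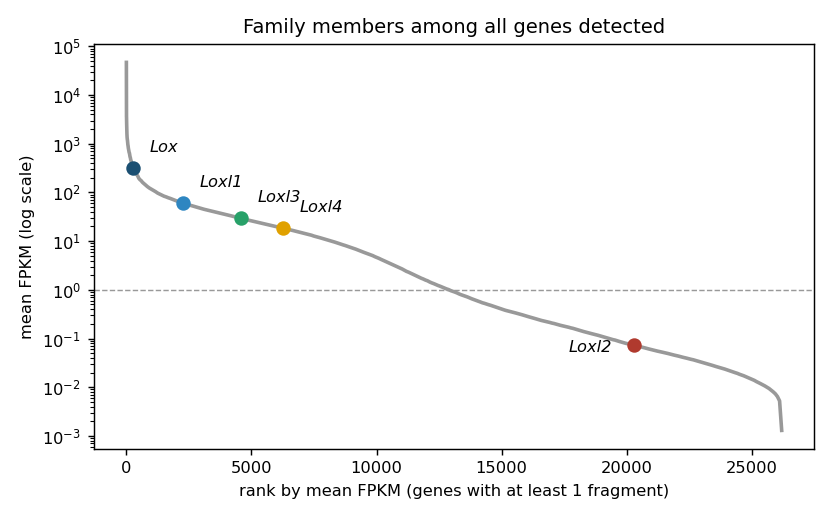
Mean FPKM (log scale) against rank for all genes with at least 1 fragment, with the family members marked. Lox (rank 280), Loxl1 (2260), Loxl3 (4589) and Loxl4 (6257) lie above the dashed line at 1 FPKM, and Loxl2 (20295) lies below it.

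The genes nearest to each member in level were found by the distance of log2(FPKM + 0.1) over the 3 libraries. Since the libraries share 1 condition, this likeness is one of level and of library scatter. A shared pattern over the libraries follows from the way these genes were chosen. Lox was nearest to Dpysl3, at 314 FPKM on average, and to Thrap3, at 318. Loxl1 was nearest to Rab2a and Wapl, which were also highest in library 1, at 64.3 and 64.2 FPKM. Loxl3 was nearest to Rab3gap2 and Fam118a, and Loxl4 to Fam104a and Prkar2b. Loxl2 was nearest to Mrgpra3 and Hey1, which like it were at 0 in library 1 and highest in library 3, at 0.162 and 0.167 FPKM.

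Genes for the substrates, activation, copper supply and lysine modification that surround these enzymes were described from fixed lists. The genes in them were chosen with earlier results of these data known, so their counts are descriptive only. Of these 31 genes, 24 had a mean of at least 1 FPKM, a limit that 23.2% of all genes listed passed. Among 8 collagen and elastin substrates, 7 passed this limit, with a median of 363 FPKM. Col1a2 and Col1a1, the chains of type I collagen, were at 1542 ± 11.7 and 1218 ± 7.80 FPKM (SD, n = 3), and Col3a1 was at 523 ± 5.09. The chains of collagen IV, the substrate associated with Loxl2, were at 402 ± 4.22 FPKM for Col4a1 and 325 ± 5.03 for Col4a2. Eln, the gene for elastin, was at 0.202, 0.0261 and 0.153 FPKM in libraries 1, 2 and 3. The collagen substrates were at 138 FPKM or more on average, and elastin was below the limit.

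Among 10 activating proteases and matrix scaffolds, 6 had a mean of at least 1 FPKM. Bmp1, which cleaves the propeptide of Lox, was at 38.5 ± 0.643 FPKM (SD, n = 3), whereas its relatives Tll1 and Tll2 were at 0.0864 and 0.00584 on average. Fn1, the gene for fibronectin, which binds Lox in the matrix, was the highest of the list, at 4278, 4421 and 4433 FPKM in libraries 1, 2 and 3. Efemp2 encodes fibulin-4, which brings Lox to elastin, and was at 85.2 ± 2.63 FPKM. Fbn1, the gene for the microfibril protein fibrillin-1, was at 59.9 ± 0.977 FPKM, close to the level of Loxl1. Postn, whose product supports the activation of Lox by Bmp1, was at 0.494 ± 0.0637 FPKM. Fmod, whose product binds Lox on collagen, was listed at 0.

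Of 7 genes for copper supply, 6 had a mean of at least 1 FPKM, with a median of 16.3. Atox1, a copper chaperone, was the highest of them, at 78.0 ± 2.21 FPKM (SD, n = 3). Atp7a, the pump that loads copper onto secreted enzymes, was at 16.3 ± 0.523 FPKM, and its relative Atp7b was at 0.124 ± 0.0368. Slc31a1, the copper importer, was at 16.9 ± 0.331 FPKM. Of 6 genes for the hydroxylation and glycosylation of collagen lysines, 5 passed the limit. Fkbp10, Plod1 and Plod2 led them, at 87.6 ± 2.09, 74.9 ± 0.474 and 60.9 ± 1.20 FPKM, and Colgalt2 was listed at 0.

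**Figure D5:**
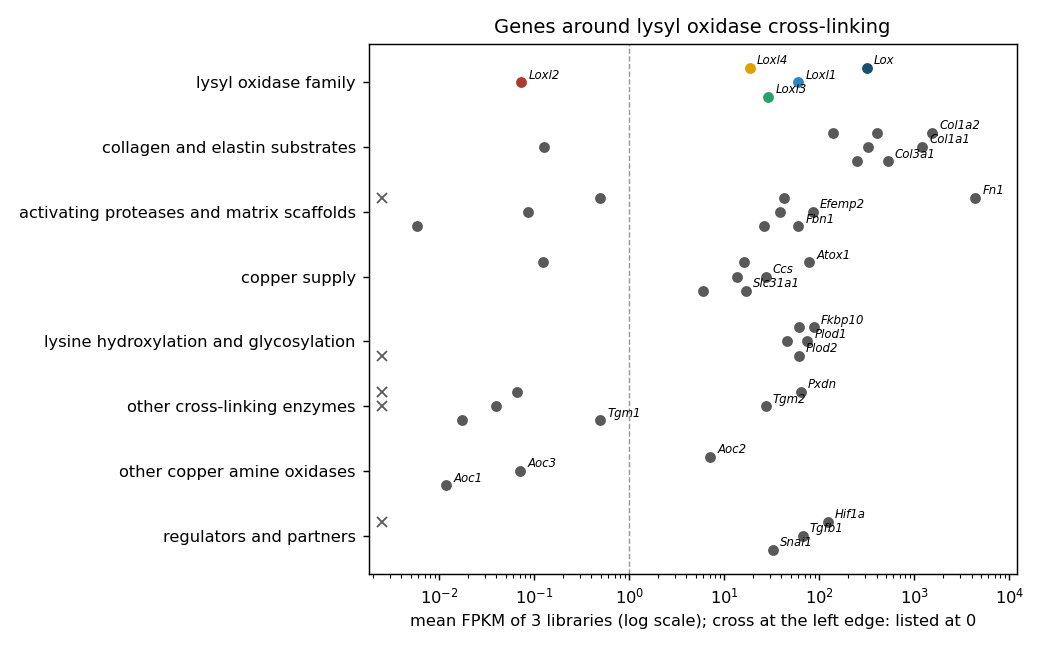
Mean FPKM over the 3 libraries (log scale) of each gene in the fixed lists, 1 row per list, with the names of the family members and of the 3 highest genes of each other list. Loxl2 lies left of the dashed line at 1 FPKM, apart from the other members, as does Eln (unnamed point) apart from the collagen chains, and crosses at the left edge mark genes listed at 0.

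The family was set beside a list of other enzymes that cross-link proteins, namely transglutaminases, F13a1 and Pxdn. Not all of these are known to act on the matrix. Among these 8 genes, 2 had a mean of at least 1 FPKM, near the share of 23.2% over all genes listed. That share also counts pseudogenes and antisense genes, and a share over protein-coding genes alone was not computed. They were Pxdn, which forms the cross-links of collagen IV, at 63.6 ± 0.849 FPKM, and Tgm2, the tissue transglutaminase, at 27.2 ± 0.491 (SD, n = 3). Tgm5 and Tgm7 were listed at 0. The summed level of the lysyl oxidase family was 4.68, 4.60 and 4.64 times that of this list in libraries 1, 2 and 3. The log2 ratio was 2.21 ± 0.01 (SD, n = 3), with p = 0.25 by the same exact permutation test, at the lower limit for 3 libraries. Without Pxdn, the highest gene of the list, the log2 ratio was 3.93. The highest gene was left out on the side of the list only, and the ratio without Lox was not computed. Lox alone, at 316 FPKM, exceeded the mean list sum of 91.5 FPKM. Loxl1 at 60.4, Loxl3 at 29.2 and Loxl4 at 18.4 FPKM were each below that sum. Of 3 other copper amine oxidases, Aoc2 alone passed 1 FPKM on average, at 7.10 ± 0.675, beside the same 23.2% of all genes listed. The lysyl oxidases made up 98.3% ± 0.145 (SD, n = 3) of the summed FPKM of the 8 copper amine oxidase genes.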

How the data were processed

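UMI-RNAseq was performed by the authors on total RNA of NIH3T3 cells in 3 libraries. According to the methods and labels, UMIs were found with UMI-tools 1.0.0, reads were mapped with HISAT2 2.0.4, copies sharing location and UMI were discarded, and HTSeq 0.6.1 counted reads per gene. The authors deposited FPKM values, 1 column per library. The build and annotation behind the counts are not given in the sources used here.

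The deposited values were used without filter or scaling. Fragments were recovered as FPKM times mean isoform length (GENCODE M21) times library total, and came out whole within 0.01 for 99.2% of 26158 genes. The totals came from genes with 1 isoform, and the step was tested on simulated counts. Totals of 13959723 to 14423209 fragments set the precision given by the intervals, which cover counting error only. No count model was fitted to FPKM. Ratios were tested by exact sign-flip permutation with a pseudocount of 0.1. Python 3.11.15, numpy 2.4.6, pandas 2.3.3, scipy 1.17.1 and matplotlib 3.10.9 were used.

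The members and lists were chosen with earlier results of these data known. Genes named are the members, the highest and lowest genes of each list, the 2 nearest in level to each member, and genes overlapping a member or sharing its sequence. Col4a1, Col4a2, Bmp1, Tll1, Tll2, Postn, Atp7a and Fap are named in addition for their roles, chosen after their values were seen. Alternatives covered libraries left out, scaling, pseudocounts, limits and gene lengths. AmpFISH imaging was not analysed here.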

Additional observations from a re-analysis of the deposited data

How the results depend on the processing

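Of 161 recomputed values, 121 stayed within 1 SD of the libraries, within 1.5 times for a count or, for ratios, at the same sign. The others are given here where they answer a comparison. Part of the count of 121 was fixed in advance. With 3 libraries, the mean of a level or share stays within 1 SD when 1 library is left out, and so does the median. Some alternative lengths also equal the length used, as for Loxl1 with its single isoform. No paired analysis was possible because no second group exists to pair the libraries with. The sign-flip test could not pass 0.05 with 3 libraries. The log2 ratio of Loxl3 to Loxl4 reversed to -0.14 with the mean length of protein-coding isoforms, a length tried only once the values had been seen, and the log2 ratios of the other 3 neighboring pairs kept their sign under pseudocounts of 1 and 0.01, other lengths and each library left out. That of Loxl4 to Loxl2 was 4.18 and 8.59 with these pseudocounts, 6.05 with the longest isoforms and 8.47 without division by length. The family total of 424 FPKM became 615 when rescaled to 1000000 per library, 390 with the longest isoform and 407 with coding isoforms. With fragments not divided by length, the longest isoform and coding isoforms, the share of Lox was 83.5%, 78.7% and 77.7%, of Loxl3 3.03%, 3.30% and 3.53%, and of Loxl4 2.09%, 2.50% and 3.89%. The share of Loxl1 was 11.4% without division by length and 15.5% with the longest isoform. That of Loxl3 was 7.35% with the length reduced by shared words, also tried later. Among genes of at least 1 FPKM, the percentile was 97.83 for Lox, 82.5 for Loxl1, 64.4 for Loxl3 and 51.5 for Loxl4. Among all genes it rose by construction to 99.50, 95.9, 91.7 and 88.7, and to 63.5 for Loxl2. With a limit of 0.1 FPKM it was 98.55, 88.3, 76.2 and 67.6 for the 4 higher members. Among protein-coding genes with a mean of at least 1 FPKM, it was 97.64, 80.1, 59.1 and 44.4 for them. With each library left out in turn, the percentile of Lox ranged from 97.83 to 97.85. The mean of Loxl2 ranged from 0.0257 FPKM without library 3 to 0.109 without library 1. Its 13 fragments in all limit what can be said of its spread.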

Other observations

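Among 4 regulators and partners of lysyl oxidases, 3 had a mean of at least 1 FPKM, against 23.2% of all genes listed. Hif1a, which encodes the oxygen-labile factor known to raise Lox in low oxygen, was at 118, 126 and 124 FPKM in libraries 1, 2 and 3. Its relative Epas1 was listed at 0. Tgfb1, the gene for the growth factor TGF-beta 1, was at 69.4, 68.0 and 63.0 FPKM. Snai1, whose product is known to bind Loxl2 and Loxl3, was at 32.4 ± 0.474 FPKM (SD, n = 3), near the level of Loxl3 and far above that of Loxl2.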
